A study of Mus musculus with 4 samples.

Results

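Autophagy machinery genes encode the proteins that build autophagosomes, the membrane sacs that carry cytoplasm to the lysosome for breakdown. A set of 39 such genes was listed by their known roles, with earlier results of these data known. Of these, 38 had a probe with a single gene symbol, among 22180 genes tested, and Optn, a cargo receptor, was not analysed here. The genes were measured in B16-OVA, a melanoma cell line of the mouse modified to express ovalbumin, a model antigen. The mock group held 2 arrays of mock transfected cells, and the AT90ES group held 2 arrays of cells transfected with AT90ES, which the labels' text links to double-stranded DNA of 90 bases in length. Transfection used Lipofectamine 2000, a cationic lipid reagent, for 6 hours. All groups shared the cell line, the culture in DMEM with serum and a treatment text that was the same for every sample, and the sources used here do not say whether mock cells were given the lipid alone. The labels name no animal, no clone and no separate culture, so p-values measure the spread between these arrays, which may be technical.

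Autophagy starts when the ULK1 kinase complex is switched on, for example when mTOR signalling is low. A lipid kinase complex around Becn1 and Pik3c3 then marks the membrane with a phosphoinositide, lipid-supply proteins let the membrane grow, and conjugation enzymes attach ATG8 proteins, the LC3 and GABARAP families, to it. Cargo receptors bind ubiquitin-tagged or other cargo with one side and ATG8 proteins with the other, and are themselves degraded with the cargo. In cells that sense cytosolic DNA, autophagy is known to remove DNA and to limit signalling by the sensor pathway. Much of this control acts on proteins, and the arrays measured RNA alone.

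Values were log2 levels, with 1 unit a 2-fold difference, and medians over all probes lay between 4.83 and 4.91 on the 4 arrays. Pearson's r across genes, which are not independent replicates, was 0.992 between mock arrays and 0.993 between AT90ES arrays. As a check of the cell type, 9 of 9 measured melanocyte markers lay on every array above the 95th percentile of the olfactory receptors, used here as a background level. That percentile lay between 4.85 and 5.07. Of the markers of other cells, 5 of 10 for myeloid cells exceeded it on all 4 arrays, 1 of 9 for lymphocytes, and 3 of 10 for fibroblasts or endothelium. No marker passed limma's adjusted test between the groups. When that test used the intensity trend described below, 1 marker, Mitf of the melanocyte set, was called lower (0.73% of all genes). The median log2 fold change was -0.20 for the myeloid, -0.08 for the lymphocyte and 0.01 for the fibroblast and endothelial markers, and their part in the results below was not tested. Of the autophagy genes, 36 of 38 lay above the percentile on all 4 arrays, as did 52.8% of all genes. The exceptions were Vmp1, above it on 1 array, and Tfeb, above it on 2.

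Autophagy genes differed little between AT90ES and mock cells, and the genes with the highest differences came from several steps. Among members above background on all 4 arrays, the highest log2 fold changes, AT90ES minus mock, were those of the ATG8 gene Gabarapl1 (0.60 ± 0.14, SE), the kinase Ulk1 (0.50 ± 0.11), the cargo receptor Nbr1 (0.50 ± 0.12) and the conjugation gene Atg12 (0.45 ± 0.13), each with n = 2 arrays per group. The lipid-supply gene Vmp1 had a measured value of 0.59 ± 0.14, but both its mock arrays lay at or under background, so its size is uncertain. The lowest were those of Uvrag and Atg4a, both at -0.16. In limma's test, adjusted by Benjamini-Hochberg over all 22180 genes with a threshold of 0.05, 0 of 38 members were higher and 0 lower. Over all genes 0.415% were called higher and 0% lower. At an unadjusted p under 0.05, 11 of 38 members were higher and 0 lower, against 4.5% of all genes higher and 4.59% lower, and against 6.13% and 4.04% of genes above background on every array. The 11 were Ulk1, Pik3c3, Pik3r4, Atg14, Vmp1, Atg10, Atg12, Gabarapl1, Sqstm1, Nbr1 and Calcoco1. Without the adjustment such calls are not controlled for the number of genes tested.

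The outcome of the test turned on how the error of a gene was estimated. Limma shares the spread of all genes, and when that shared spread was allowed to follow the level of the gene (an intensity trend), 5 of 38 members were called higher and 0 lower, against 1.94% and 0.73% of all genes and 3.28% and 1.35% of genes above background on every array. These were Sqstm1 (adjusted p = 9.5e-05), Gabarapl1 (0.00465), Nbr1 (0.00824), Ulk1 (0.0158) and Calcoco1 (0.0272). Without the trend and with dim genes left out, limma's adjusted p was 0.175 for Sqstm1, 0.115 for Gabarapl1, 0.112 for Nbr1, 0.0966 for Ulk1 and 0.186 for Calcoco1. Without the trend and with the replicate number added to the fit, it was 0.784, 0.518, 0.608, 0.6 and 0.761 in the same order. The trend left the fold changes as they were and gave Sqstm1, whose probe was bright, a standard error of 0.039 in place of 0.11. Vmp1, whose probe was dim, went the other way, to a standard error of 0.192 and an adjusted p = 0.177 with the trend. With the trend, Gabarapl1 and Sqstm1 were called in each of 4 fits that left out an array and each of 3 fits that rescaled the arrays.

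Beside the 5 calls of the trend fit, 2 members were called higher when mock replicate 1 was left out (1.34% of all genes higher, 0.464% lower) and 4 when mock replicate 2 was (1.75% and 0.338%). With AT90ES replicate 1 left out there were 5 (1.97% and 1.5%), and with AT90ES replicate 2 left out 6 (2.82% and 1.08%). In each of these fits 1 group has a lone array, which is assumed to vary like the others. Limma's prior, which carries the shared spread, weighed as much as 3.70 degrees of freedom without the trend and 10.7 with it. It rose to 6951 and 711 in the trend fits without AT90ES replicates 1 and 2, where a gene's own spread counted for almost nothing, so the calls of those fits say little about stability. Under rescaling with the trend, 2 members were called with arrays centred on their median (1.42% of all genes higher, 0.23% lower) and 5 with arrays set to a common mean of reference genes (1.74% and 1.39%). After a further quantile normalization 4 were called (1.88% and 1.14%), and with dim genes left out 5 (3.91% and 1.97%). No member was called lower in any of these fits.

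**Figure D1:**
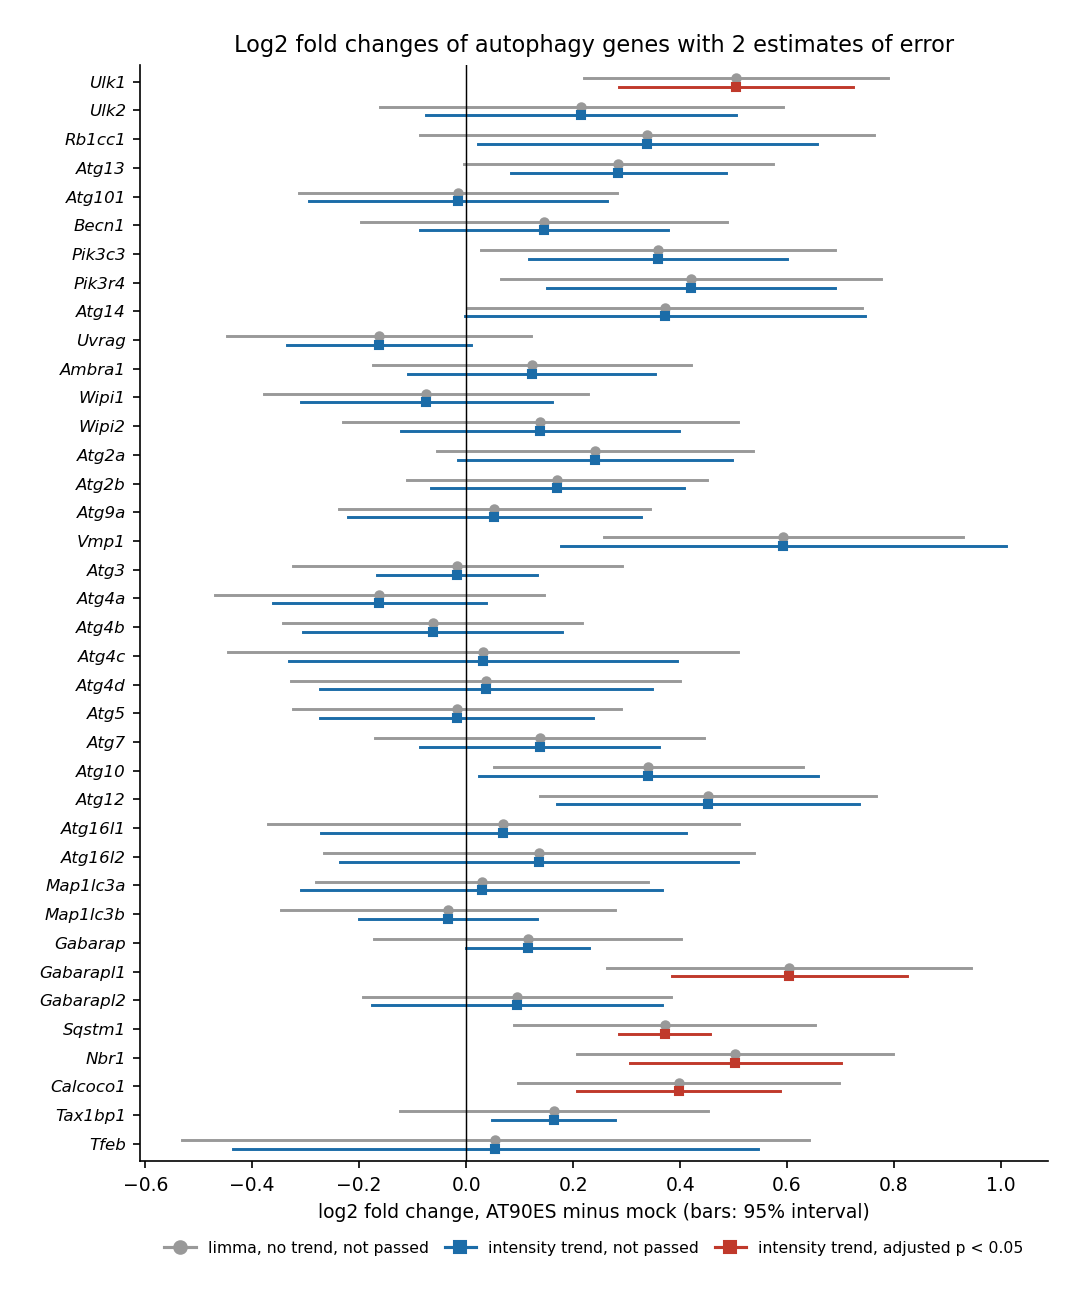
Log2 fold change of each of the 38 measured autophagy genes (AT90ES minus mock, x axis) with its 95% interval from limma, without (grey) and with an intensity trend (blue, or red where the adjusted p was under 0.05). The 5 genes in red are Ulk1, Gabarapl1, Sqstm1, Nbr1 and Calcoco1, and the interval of Sqstm1 is the one that narrows most among these.

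These 5 genes are the members called with the trend, but not without it, when all arrays were kept. The DNA in front of them is therefore shown, together with that of Atg3, a conjugation gene whose log2 fold change was -0.02. Each line gives the 250 bases before the start of the gene in RefSeq's GRCm38.p6 annotation, 5′ to 3′ on the strand of the gene, and for Nbr1, which has more than 1 start, the one with the lower coordinate. Capitals mark matches, on either strand, to any of the motifs named in the next paragraph. The capitals of Ulk1, Gabarapl1, Sqstm1 and Calcoco1 are GC boxes, of which a pair in Calcoco1 overlap. Those of Nbr1 are a CCAAT box, and Atg3 holds GC boxes and 2 E-boxes.
Ulk1, chr5:110810082-110810331, minus strand: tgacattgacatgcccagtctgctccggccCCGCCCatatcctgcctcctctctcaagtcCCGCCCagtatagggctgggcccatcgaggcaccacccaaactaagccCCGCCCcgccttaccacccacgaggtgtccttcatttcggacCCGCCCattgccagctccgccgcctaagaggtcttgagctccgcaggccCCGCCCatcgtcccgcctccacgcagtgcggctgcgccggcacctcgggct
Gabarapl1, chr6:129532942-129533191, plus strand: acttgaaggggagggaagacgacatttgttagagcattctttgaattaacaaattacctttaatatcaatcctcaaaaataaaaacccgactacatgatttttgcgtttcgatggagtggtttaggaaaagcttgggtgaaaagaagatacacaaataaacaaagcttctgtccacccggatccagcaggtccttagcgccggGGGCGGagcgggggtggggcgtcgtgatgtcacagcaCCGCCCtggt
Sqstm1, chr11:50210821-50211070, minus strand: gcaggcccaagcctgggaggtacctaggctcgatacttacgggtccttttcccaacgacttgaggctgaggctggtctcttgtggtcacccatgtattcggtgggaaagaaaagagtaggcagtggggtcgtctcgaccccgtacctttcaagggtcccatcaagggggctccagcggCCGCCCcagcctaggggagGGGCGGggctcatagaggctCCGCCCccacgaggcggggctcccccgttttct
Calcoco1, chr15:102722179-102722428, minus strand: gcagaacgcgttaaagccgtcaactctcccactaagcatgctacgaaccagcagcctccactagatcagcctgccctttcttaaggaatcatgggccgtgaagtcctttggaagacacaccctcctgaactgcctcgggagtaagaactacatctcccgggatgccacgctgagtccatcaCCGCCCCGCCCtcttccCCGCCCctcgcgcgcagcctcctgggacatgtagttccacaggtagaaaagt
Nbr1, chr11:101551857-101552106, plus strand: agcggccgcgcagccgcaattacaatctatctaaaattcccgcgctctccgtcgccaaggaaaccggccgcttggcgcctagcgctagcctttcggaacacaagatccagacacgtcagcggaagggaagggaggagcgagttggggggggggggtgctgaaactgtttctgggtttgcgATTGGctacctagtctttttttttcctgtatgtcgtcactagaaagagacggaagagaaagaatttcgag
Atg3, chr16:45158579-45158828, plus strand: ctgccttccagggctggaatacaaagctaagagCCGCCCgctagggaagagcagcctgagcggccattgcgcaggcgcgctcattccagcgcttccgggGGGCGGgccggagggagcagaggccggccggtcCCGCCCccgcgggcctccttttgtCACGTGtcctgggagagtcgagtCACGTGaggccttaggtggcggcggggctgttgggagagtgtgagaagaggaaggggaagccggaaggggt

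Promoters were matched by symbol for 33 of the 39 genes, and the same 250 bases were searched in all 32851 promoters, some genes having several. Members were counted by gene, with a match in any of their 41 promoters, whereas the shares of all are by promoter. A gene with several starts thus had more chances of a match, so the 2 measures are not alike. The E-box CACGTG, the core of the site bound by Tfeb and its relatives, was found in front of Atg3, Atg5 and Atg7 and in 6.02% of all promoters. Its longer form, the CLEAR motif, which is the E-box with GT before it and AC after it, was found in front of 0 of the 33 genes and in 0.24% of promoters. The antioxidant response element TGACNNNGC was found in front of Atg13, Tax1bp1, Ulk2 and Vmp1 and in 10.2% of promoters. The interferon-stimulated response element, GAAA repeated with any 2 bases between (2.98% of promoters), the FOXO motif GTAAACA (3.17%), the AP-1 motif TGANTCA (6.75%) and the p53 motif, as paired half-sites up to 13 bases apart (0.0639%), were found in 0 of the 33. The cAMP response element TGACGTCA was found in front of Atg16l2 and in 1.55% of promoters. The GC box GGGCGG was found in front of 21 of the 33 genes, against 32.7% of promoters, and the CCAAT box CCAAT in front of 8, against 33.8%. A match is a description of the letters in this window and not a bound site.

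Genes of the starting steps stood higher in AT90ES cells as measured, though none passed the test without the trend. The group held 11 genes, 5 of the ULK1 kinase complex and 6 of the class III PI3-kinase complex. Its median log2 fold change was 0.28, against -0.02 over all genes tested, and 9 of the 11 values were above 0, against 45.4% of all genes and 49.1% of genes above background. Both AT90ES arrays lay above both mock arrays for 8 of the 11 and below for 1, against 17.7% and 22.1% of all genes and 23.2% and 22.9% of genes above background. With arrays centred on their median 5 of the 11 lay above (17.9% of all genes), and centred on the reference genes also 5 (12.4%). The median was 0.18 without mock replicate 1. Set against the mean of the mock arrays, the median gene of the group lay at 0.38 on AT90ES replicate 1 and at 0.20 on replicate 2.

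Ulk1, the kinase that starts autophagy, had log2 levels of 7.59 and 7.63 in mock and 8.09 and 8.14 in AT90ES cells. The groups did not overlap, and the gap between them was far wider than the gap within either. The fold change was 1.42, or 0.50 on the log2 scale with a 95% interval of 0.22 to 0.79 (limma adjusted p = 0.316, and 0.0158 with the trend). Ulk2, its close relative, had 7.11 and 7.18 in mock and 7.53 and 7.19 in AT90ES cells, so that AT90ES replicate 1 stood apart and replicate 2 lay just above the mock arrays (log2 fold change 0.22, interval -0.16 to 0.59). Rb1cc1, the large scaffold of the complex, stood at 0.34 and Atg13, a subunit through which mTOR acts, at 0.28. Their adjusted p-values in limma were 0.628 and 0.555. Atg101, which stabilises Atg13, had a log2 fold change of -0.01 (interval -0.31 to 0.28), and its value turned positive with arrays centred on their median.

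Within the lipid kinase complex, 0 of 6 genes passed limma's adjusted test, and 3 had an unadjusted p under 0.05 and were higher, against 4.5% of all genes and 6.13% of genes above background. Pik3r4, the regulatory subunit, had levels of 7.18 and 7.38 in mock and 7.81 and 7.59 in AT90ES cells, a log2 fold change of 0.42 ± 0.14 (SE; limma adjusted p = 0.475). Pik3c3, the catalytic subunit, had 7.66 and 7.67 in mock and 8.14 and 7.90 in AT90ES cells, a difference of 0.36 ± 0.13 (limma adjusted p = 0.515). For both genes AT90ES replicate 1 was the higher array. Atg14, the subunit that directs the complex to autophagosome formation, had 5.56 and 5.38 in mock and 5.98 and 5.70 in AT90ES cells, a difference of 0.37 ± 0.15 (limma adjusted p = 0.546). Uvrag, which takes the place of Atg14 in the endosomal form of the complex, had 9.01 and 8.95 in mock and 8.84 and 8.80 in AT90ES cells. Both AT90ES arrays lay below both mock arrays, with a log2 fold change of -0.16 (interval -0.45 to 0.12, limma adjusted p = 0.734). Becn1, the shared core subunit, stood at 0.15 and Ambra1, which links Becn1 to the kinases, at 0.12. Whether Atg14 and Uvrag differ from each other in response was not tested.

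**Figure D2:**
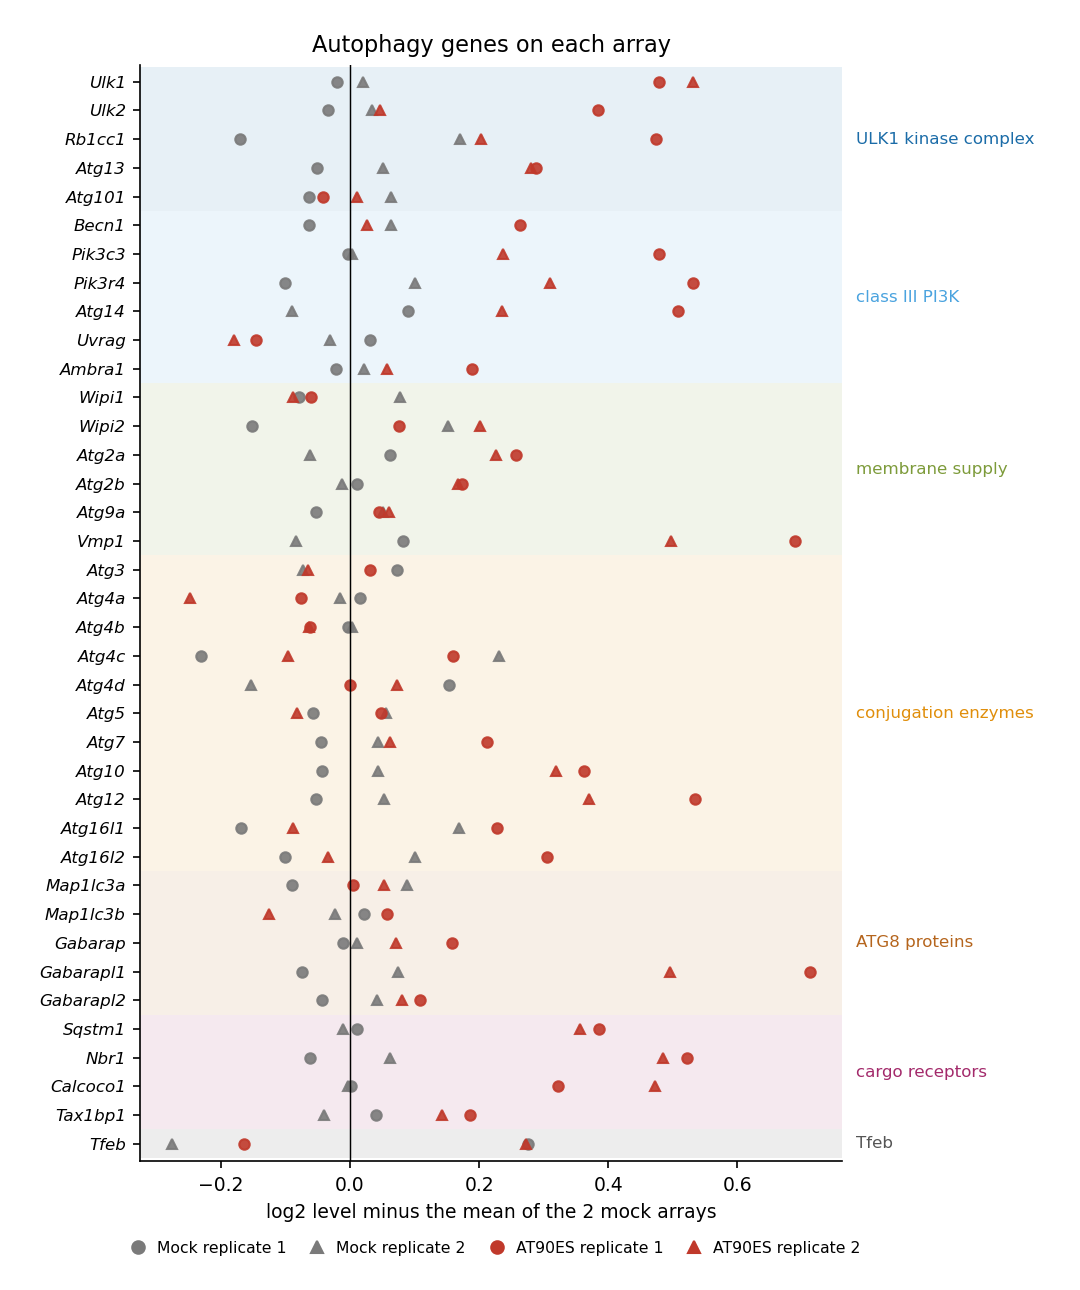
Log2 level of each measured autophagy gene on each array minus the mean of its 2 mock arrays (x axis), with genes in rows by role, mock arrays in grey and AT90ES arrays in red, circles for replicate 1 and triangles for replicate 2. The 4 cargo receptors lie to the right of both mock arrays on both AT90ES arrays, and most conjugation enzymes overlap.

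Lipid-supply genes, which deliver lipid to the growing membrane, had a median of 0.15 over 6 genes. Both AT90ES arrays lay above both mock arrays for 3 of 6 as deposited, against 17.7% of all genes and 23.2% of those above background. The count was also 3 with arrays centred on their median (17.9% of all genes), on the reference genes (12.4%) and after a further quantile normalization (18.9%). In the last pair of rescalings 1 of the 6 lay below both mock arrays, against 6639 and 5089 of all 22180 genes. Vmp1, an endoplasmic reticulum scramblase needed early in the process, had levels of 4.32 and 4.15 in mock and 4.92 and 4.73 in AT90ES cells. The log2 fold change was 0.59 (interval 0.26 to 0.93, limma adjusted p = 0.32), at a level at or under that of olfactory receptor genes on 3 arrays. Atg2a and Atg2b, the lipid transfer proteins, stood at 0.24 and 0.17. Wipi2, which binds the marked membrane, stood at 0.14, its relative Wipi1 at -0.07, and Atg9a, the transmembrane scramblase of the vesicles that seed the membrane, at 0.05. Adjusted p-values of this role lay between 0.32 and 0.931 in limma.

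The conjugation group was the closest to all genes, with a median log2 fold change of 0.05 over 16 genes. Both AT90ES arrays lay above both mock arrays for 6 of the 16, or 37.5%, and below for 2. The shares were 17.7% and 22.1% of all genes, and 23.2% and 22.9% of genes above background. With arrays centred on their median 3 of the 16, or 18.8%, lay above, near the 17.9% of all genes. Centred on the reference genes 4 of the 16, or 25%, lay above (12.4% of all genes). After a further quantile normalization 6 of the 16, or 37.5%, lay above (18.9%). The median gene of the group stood at 0.13 on AT90ES replicate 1 and at 0.01 on replicate 2, against the mock mean. Its median moved to 0.13 when AT90ES replicate 2 was left out and 0.0096 when AT90ES replicate 1 was left out. Centring on the reference genes gave a median of 0.0032.

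Of the 11 conjugation enzymes, 2 were higher at an unadjusted p under 0.05, against 4.5% of all genes and 6.13% of those above background. None passed limma's adjusted test. Atg12, the ubiquitin-like protein that is joined to Atg5, had levels of 6.63 and 6.74 in mock and 7.22 and 7.05 in AT90ES cells, a log2 fold change of 0.45 ± 0.13 (SE; limma adjusted p = 0.402). Atg10, the enzyme that carries out this joining, had 5.96 and 6.04 in mock and 6.36 and 6.32 in AT90ES cells, a difference of 0.34 ± 0.12 (limma adjusted p = 0.476). In both genes the groups did not overlap. Atg5, the partner of Atg12, had 7.29 and 7.40 in mock and 7.40 and 7.27 in AT90ES cells, so that the groups overlapped (log2 fold change -0.02, interval -0.32 to 0.29).

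Atg7, which activates both Atg12 and the ATG8 proteins, stood at 0.14, and Atg3, which transfers ATG8 to lipid, at -0.02. Atg16l1, which places the Atg12 and Atg5 conjugate on the membrane, stood at 0.07, and its relative Atg16l2 at 0.14. The ATG4 proteases, which trim ATG8 proteins and release them again, stood at -0.16 (Atg4a), -0.06 (Atg4b), 0.03 (Atg4c) and 0.04 (Atg4d). Atg4a had levels of 8.63 and 8.59 in mock and 8.53 and 8.36 in AT90ES cells, and Atg4b had 7.41 and 7.42 against 7.35 and 7.35. These were the pair of conjugation genes with both AT90ES arrays below both mock arrays, with limma adjusted p = 0.754 and 0.916. The values of Atg4c and Atg4d turned negative after centring on the reference genes and after a further quantile normalization, and those of Atg3 and Atg5 turned positive with arrays centred on their median.

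Of the 5 ATG8 genes, Gabarapl1 stood apart from the rest as measured. It had levels of 8.09 and 8.24 in mock and 8.88 and 8.66 in AT90ES cells, a fold change of 1.52. The lowest AT90ES array lay well above the highest mock array, and the 95% interval on the log2 scale was 0.26 to 0.94 (limma adjusted p = 0.317, and 0.00465 with the trend). Gabarap had 10.60 and 10.62 in mock and 10.77 and 10.68 in AT90ES cells, a difference of 0.11 (interval -0.17 to 0.40). Its other, dimmer probe had a log2 fold change of 0.33, with an adjusted p = 0.812 in limma when every probe was tested separately. Gabarapl2 stood at 0.09, Map1lc3a at 0.03 and Map1lc3b, the LC3 gene most used as a marker of autophagosomes, at -0.03 (interval -0.35 to 0.28). The value of Map1lc3a turned negative with arrays centred on the reference genes. ATG8 genes are related in sequence, and hybridisation of a probe to more than 1 of them was not tested.

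Cargo receptors had the highest median of the groups compared, 0.38 over 4 genes. Both AT90ES arrays lay above both mock arrays for 4 of 4, as deposited and in each of the 3 rescalings. The share of all genes was 12.4% to 18.9%, and that of genes above background was 23.2% as deposited. Sqstm1, which encodes the ubiquitin-binding receptor p62, had levels of 11.43 and 11.41 in mock and 11.81 and 11.78 in AT90ES cells. The arrays of each group nearly coincided, at 11.42 ± 0.02 and 11.79 ± 0.02 (SD, n = 2), and the fold change was 1.29 (limma adjusted p = 0.444, and 9.5e-05 with the trend). Nbr1, a receptor of similar design, had 8.12 and 8.24 in mock and 8.70 and 8.67 in AT90ES cells. Its fold change was 1.42, with a 95% interval of 0.21 to 0.80 on the log2 scale (limma adjusted p = 0.33, and 0.00824 with the trend).

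Calcoco1, a receptor for parts of the endoplasmic reticulum and Golgi, had levels of 8.49 and 8.48 in mock and 8.81 and 8.96 in AT90ES cells. The log2 fold change was 0.40 (interval 0.10 to 0.70, limma adjusted p = 0.442, and 0.0272 with the trend). Tax1bp1, which binds ubiquitin-tagged cargo and also restrains inflammatory signalling, had 10.60 and 10.52 in mock and 10.74 and 10.70 in AT90ES cells. Its arrays did not overlap either, but the difference was the smallest of the 4, at 0.16 (interval -0.12 to 0.45, adjusted p = 0.735 in limma and 0.179 with the trend). Against the mock mean, the median cargo receptor lay at 0.35 on AT90ES replicate 1 and at 0.41 on replicate 2. Calcoco1 was higher on replicate 2, whereas Sqstm1, Nbr1 and Tax1bp1 were each slightly higher on replicate 1. The median gene of the starting and conjugation groups was higher on replicate 1. That of the lipid-supply genes was higher on replicate 2, at 0.18 against 0.12. The medians of 0.38, 0.28 and 0.05 for cargo receptors, starting steps and conjugation are descriptions of 4, 11 and 16 genes, and the difference between the groups was not tested.

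**Figure D3:**
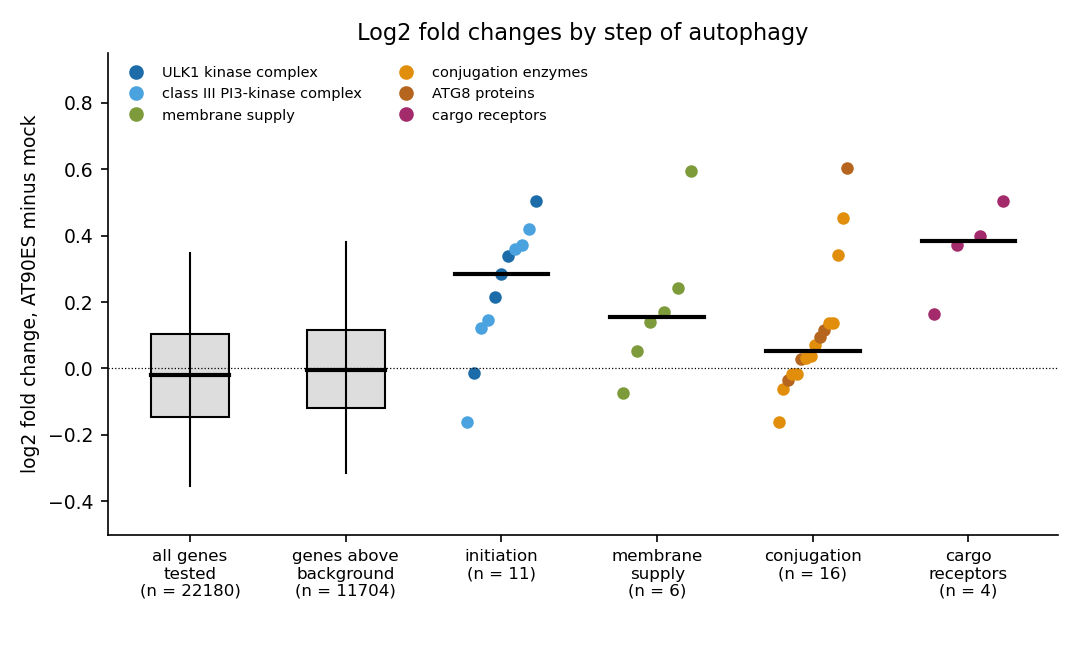
Log2 fold change (AT90ES minus mock, y axis) of the genes of each step as points, with the median as a bar, beside boxes for all genes tested and for genes above background on all 4 arrays (box: 25th to 75th percentile, line: 5th to 95th). The medians are 0.28 for initiation, 0.15 for membrane supply, 0.05 for conjugation and 0.38 for cargo receptors.

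**Figure D4:**
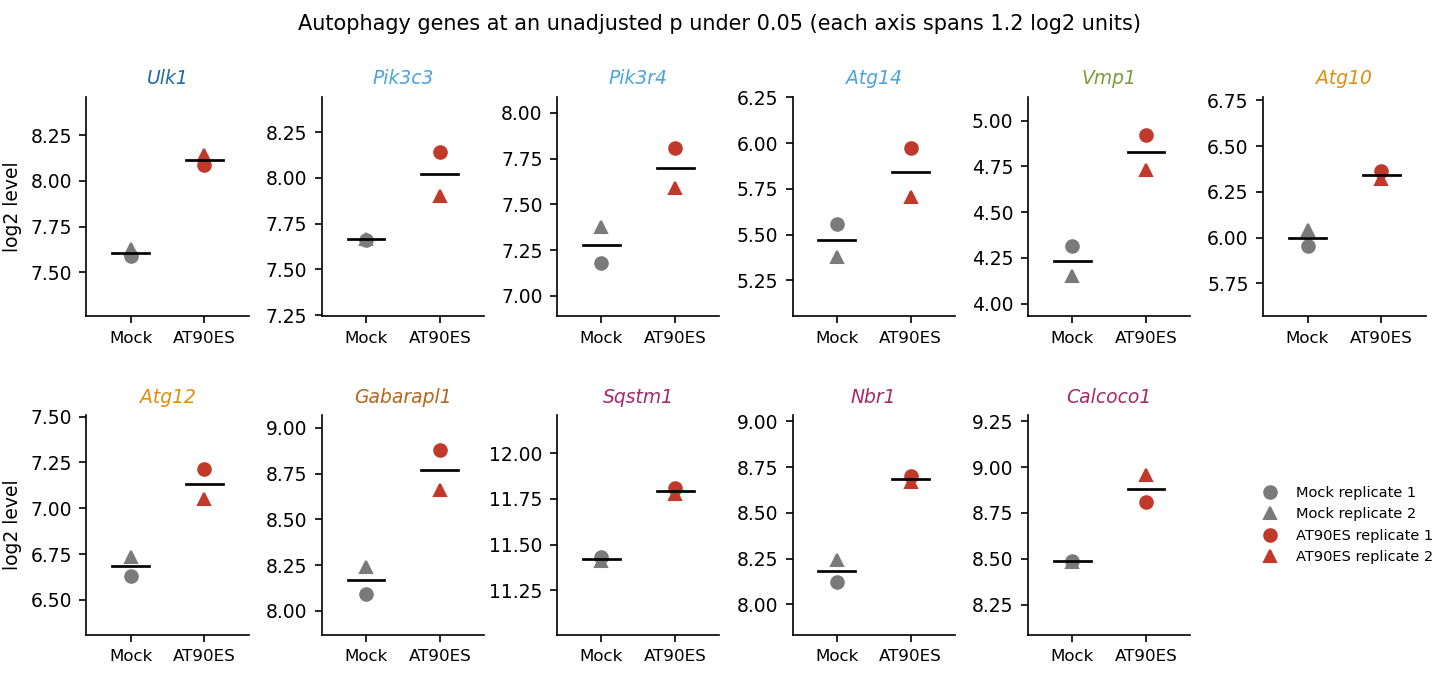
Log2 level on each array (y axis, 1.2 units in every panel) of the 11 autophagy genes at an unadjusted p under 0.05, for mock (grey) and AT90ES (red) cells, with the group mean as a bar. In each panel both AT90ES arrays lie above both mock arrays, and Sqstm1 and Ulk1 have the arrays of a group close together.

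Tfeb, the transcription factor that drives many autophagy and lysosome genes, gave no stable value. Its levels were 5.16 and 4.61 in mock and 4.73 and 5.16 in AT90ES cells, so the groups overlapped, with a log2 fold change of 0.05 and an interval of -0.53 to 0.64. On 2 arrays it lay at or under the level of olfactory receptor genes. A change in Tfeb of a size inside that interval, in either direction, is not excluded by these arrays. Because RNA came from whole cultures, fewer cells expressing a gene and less RNA per cell cannot be told apart for any gene here.

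A few genes that act before or beside the machinery rose by more than any member of it. Among 17 genes that restrain mTOR or sense nutrients, 2 rose, 0 fell and 15 did not pass, with a median of 0.09, and over all genes 0.415% were called higher and 0% lower. Sesn2, a sestrin that holds mTOR complex 1 inactive, went from 7.70 and 7.68 in mock to 9.76 and 9.79 in AT90ES cells, and Ddit4, another mTOR inhibitor, from 6.37 and 6.55 to 8.32 and 8.18 (limma adjusted p = 0.00319 and 0.00921). With the trend 4 of the 17 were called higher (1.94% of all genes). Those added by the trend were Prkaa2, a catalytic subunit of the energy-sensing kinase AMPK, at 0.72 (adjusted p = 0.194 in limma, and 0.00168 with the trend), and Deptor, an inhibitor of mTOR, at 0.40 (0.438 and 0.00634). Among 14 genes of mTOR complex 1 and inhibitors of autophagy 0 passed, with a median of 0.02, from -0.31 for Mlst8, a subunit of the mTOR complexes, to 0.28 for Zkscan3, a repressor of autophagy genes. At an unadjusted p under 0.05, 0 of these 14 were higher and 1 was lower in limma. The shares were 4.5% and 4.59% of all genes, and 6.13% and 4.04% of genes above background.

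Among 10 measured p53-linked and transcriptional regulators 1 rose, 0 fell and 9 did not pass, with a median of 0.26. Over all genes 0.415% were called higher and 0% lower without the trend. Trp53inp1, a p53 target whose protein binds ATG8 proteins, went from 7.57 and 7.48 in mock to 10.63 and 10.65 in AT90ES cells (limma adjusted p = 0.000881). With the trend 3 of the 10 were called higher and 1 lower (1.94% and 0.73% of all genes). Ddit3, a transcription factor of the stress response also known as CHOP, stood at 0.71, with 6.77 and 6.81 in mock and 7.43 and 7.57 in AT90ES cells (adjusted p = 0.16 in limma, and 0.00517 with the trend). The forkhead factor Foxo3 stood at 0.58, with 6.59 and 6.64 in mock and 7.17 and 7.22 in AT90ES cells (adjusted p = 0.236 in limma, and 0.0248 with the trend). Mitf, a relative of Tfeb and the master factor of pigment cells, had 10.33 and 10.40 in mock and 10.02 and 10.02 in AT90ES cells, a log2 fold change of -0.34 (adjusted p = 0.469 in limma, and 0.00483 with the trend). Of 18 measured other receptors and scaffolds of selective autophagy 1 rose without the trend, against 0.415% of all genes, and their median was 0.03. It was Irgm1, an interferon-inducible GTPase, which went from 5.56 and 5.46 to 8.03 and 7.90 (limma adjusted p = 0.00248). The lowest value on that list was -0.43 for Bnip3, a receptor for mitochondria, whose mock arrays at 5.35 and 6.05 were wide apart.

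Steps after the autophagosome is closed had 0 calls in limma without the trend. Of 14 fusion genes, which join autophagosome and lysosome, 12 had values above 0 (45.4% of all genes) with a median of 0.13. Values ran from -0.14 for Tecpr1, a tethering factor, to 0.26 for Snap29, a SNARE protein. At an unadjusted p under 0.05, 0 of the 14 were higher and 0 lower in limma, against 4.5% and 4.59% of all genes. Of 21 measured lysosome genes, 19 had values above 0, against 45.4% of all genes and 49.1% of genes above background, with a median of 0.13. Both AT90ES arrays lay above both mock arrays for 15, against 17.7% and 23.2%. Lipa, the lysosomal acid lipase, had 10.75 and 10.85 in mock and 11.56 and 11.54 in AT90ES cells, a log2 fold change of 0.75 ± 0.12 (SE; adjusted p = 0.128 in limma, and 7.63e-07 with the trend). Npc1, a cholesterol exporter, was the lowest at -0.06. At an unadjusted p under 0.05, 2 lysosome genes were higher in limma (4.5% of all genes, 6.13% of those above background). With the trend 5 were called higher (1.94% and 3.28%), Lipa, the proteases Ctsb, Ctsd and Tpp1, and the proton pump subunit Atp6v1b2. The 9 measured reference genes, often used as constant standards, had a median of 0.05, from -0.09 for Gusb, a lysosomal enzyme, to 0.20 for Hprt, an enzyme of purine salvage.

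**Figure D5:**
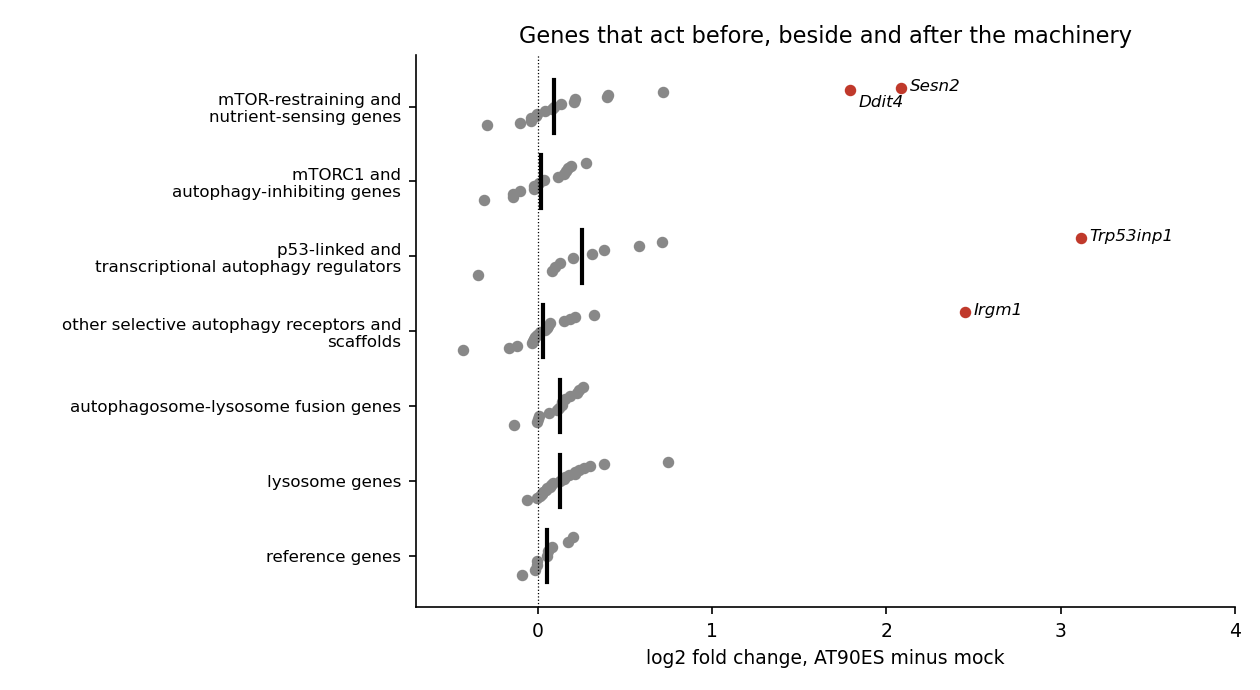
Log2 fold change (AT90ES minus mock, x axis) of genes that act before, beside and after the autophagy machinery, by list, with the median as a bar and genes at an adjusted p under 0.05 in red. Trp53inp1, Irgm1, Sesn2 and Ddit4 lie between 1.79 and 3.12, and the other genes lie between -0.43 and 0.75.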

How the data were processed

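Total RNA of 4 samples, 300 ng each, was measured on Affymetrix arrays. The deposited values, log2 levels of 41345 probes, were made by the authors with RMA, per the submitters' processing notes. Software, version and settings are not given in the sources used here. RMA usually sets arrays to a common scale, which removes a change shared by all genes.

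The platform annotation gave 23521 probes 1 gene symbol, 1814 several and 16010 none, and the brightest single-symbol probe stood for a gene. AT90ES minus mock was tested with limma 3.58.1 (R 4.3.3; lmFit, eBayes, no covariate or filter), two-sided, with Benjamini-Hochberg adjustment over 22180 genes and 2 residual degrees of freedom. The number of arrays limits the precision, and an exact permutation test of 2 against 2 arrays cannot go below p = 0.333. The fit was tested on simulated data.

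Members, roles and lists were chosen with earlier results of these data known. All measured members are named, with each array's value for those at an unadjusted p under 0.05 and for the largest change in each role. From each further list up to 4 genes past the threshold, or else the highest and lowest, are named. Values by array of other members, the genes of further lists called only with the trend, Bnip3 and the dimmer Gabarap probe, were added after their values were seen. Alternatives were an intensity trend, robust spreads, dim genes left out, other uses of probes, 3 rescalings, a replicate block and leaving out each array. Promoters came from RefSeq (GRCm38.p6).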

Additional observations from a re-analysis of the deposited data

How the results depend on the processing

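Under every alternative without an intensity trend, 0 of the members tested were called higher or lower in limma (38, or 36 with dim genes left out), and with the trend 0 were called lower. With the trend 5 were called higher, and combined with other choices, added after the data were seen, 2 with arrays centred on their median, 5 on the reference genes, 4 after a further quantile normalization, 5 with dim genes left out and 2 to 6 without each array. The median of the initiation genes ranged from 0.18 to 0.38 without each array, that of the conjugation genes from 0.0096 to 0.13 and that of the cargo receptors from 0.35 to 0.41. The cargo receptor median was 0.41 with arrays centred on their median, 0.33 on the reference genes and 0.32 after quantile normalization. Arrays centred on the reference genes moved the median of all genes to -0.07 from -0.02. Over all genes the calls without the trend ranged from 30 with every probe tested separately to 172 higher and 4 lower after median centring. They were 32 to 47 without each array, and 159 higher and 7 lower with dim genes left out. Of 832 values of single members under the alternatives, 38 passed the threshold where the reported one did not, and 52, of members not called, had the other sign.

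With the replicate block 0 members were called and 85 of all genes, against 92 without it. The deviations of same-numbered arrays correlated at -0.22, and a crossed pairing, added after the data were seen, gave 0 members and 59 of all genes higher. The labels do not say that the numbers mark shared cultures.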
